A study of Caenorhabditis elegans with 4 samples.

Results

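The gene examined is unc-62 of Caenorhabditis elegans, read together with 10000 bp on each side. It was chosen because it encodes the protein that was immunoprecipitated. Its regions are those that the lists place at the position of unc-62. Every region with its summit in that window was taken from 6 deposited lists on the ce11 build. The window held 12 of 1037 optimal peaks, 31 of 18556 merged regions, and 32, 36, 33 and 31 regions of replicates 1, 2, 3 and 4, whose lists held 30000, 30000, 30000 and 28073.

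The assay was ChIP-seq, in which DNA bound by a protein is pulled down with an antibody and sequenced, on whole L3 larvae of mixed sex, with 4 biological replicates of 1 group. All 4 were strain OP600, an unc-119(ed3) mutant with the integrated transgene wgIs600, which holds unc-62 fused to the TY1, EGFP and FLAG tags and a copy of unc-119. Replicates 1 and 2 carry the label of a size range, 150 to 350, and came from a stock center, whereas replicates 3 and 4 are labelled with microtip sonication and the laboratory as source. No untagged strain or unc-62 mutant is among the groups. The strain thus carries unc-62 sequence at the native gene and in the transgene, and reads of both map to the same place. Contributions of the native gene and of the transgene cannot be told apart in any value at this locus, and the extent of the transgene is not given in the sources used here.

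UNC-62 is a transcription factor with a TALE-type homeodomain, related to Homothorax of the fly and MEIS proteins of mammals. Such proteins bind DNA with PBX-type partners and with Hox proteins, and in the worm unc-62 is known for roles in embryonic patterning, vulval development and yolk protein expression. The gene is transcribed from more than 1 start, so its isoforms differ in their first exons and in the regulatory DNA that precedes them.

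The gene (WBGene00006796) lies on the forward strand of chromosome V, at chrV:4497461-4511449, and is 13989 bp long. With its flanks it covers 33989 bp, 0.162% of chromosome V. Ensembl annotates 18 transcripts with 15 distinct starts, which become 11 starts when those within 100 bp are joined, numbered here from upstream to downstream over 9743 bp. Start 1 serves 5 transcripts, among them the longest isoforms a and f, of 564 and 560 amino acids. Starts 2 to 4, between 4499327 and 4499796, serve 5 transcripts, among them isoforms b and e of 527 and 523 amino acids. The other 8 transcripts start farther downstream, among them isoforms g and h, of 490 and 486 amino acids, at 4501318. RefSeq lists 8 transcripts and 5 starts, at 4497463, 4497469, 4499330, 4499796 and 4501318. In Ensembl, 10 transcripts, all named d, code only from 4509913 for 111 amino acids, and of the 8 downstream transcripts 4 start within 10 bp of the first base of an internal exon.

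Optimal peaks are the authors' regions passing a threshold on the irreproducible discovery rate, which scores how well the order of regions is repeated from replicate to replicate. In the merged list the same 1037 regions took the first 1037 places by signal, so a peak has 1 rank in both lists. Signal is the authors' value per region and its scale differed between lists, so replicates were compared by rank, with rank 1 the highest. A replicate is said here to hold a peak when 1 of its own 1037 highest regions covers at least 1 bp of that peak.

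UNC-62 regions formed a dense cluster at unc-62, with 3 optimal peaks upstream of start 1, 9 inside the gene and 0 downstream of it. The strongest peak lay at the second group of starts and 5 peaks lay in the longest intron, whereas start 1 had no optimal peak within 1000 bp. Of the 31 merged regions, 12 were optimal, 38.7% against 5.59% of the merged list as a whole. The signal of the 12 ran from 37.6 to 210.5, with a median of 79.9 against 50.5 for all optimal peaks. Of the 12 peaks, 6 were among the 100 highest of the list, 4 among the 50 highest and 3 in its lower part by rank, past the midpoint. The −log10 q-value given by the authors was 3.42 for each of the 12 and does not order them.

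The sequences at the 3 upstream summits, and the motif sites at the peaks of rank 7 and rank 20, are shown because they hold the matches to short motifs of homeodomain proteins of the TALE class. The letters are from the RefSeq genome of the same build, forward strand, 5′ to 3′, with capitals marking the motif match. Peaks are numbered 1 to 12 from upstream to downstream. The windows of peaks 1, 2 and 3 are the 101 bases around the summit, at chrV:4489884-4489984, chrV:4491426-4491526 and chrV:4495183-4495283. Those of peaks 4 and 10 are 30 bases around the match, at chrV:4499517-4499546 and chrV:4507993-4508022.
Peak 1: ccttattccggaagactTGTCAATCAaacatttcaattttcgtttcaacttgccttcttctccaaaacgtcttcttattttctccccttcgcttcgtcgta
Peak 2: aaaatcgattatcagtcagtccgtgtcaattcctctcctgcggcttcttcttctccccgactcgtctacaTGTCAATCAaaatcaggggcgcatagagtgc
Peak 3: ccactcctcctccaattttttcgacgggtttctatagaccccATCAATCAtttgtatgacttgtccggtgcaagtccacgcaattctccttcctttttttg
Peak 4: atattcatctgtCTGTCAtattatttacgt
Peak 10: agccttggcaaTGATGGATcgccgcagctg

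The motifs searched, on both strands within 50 bp of each summit, were TGACAG, the site of MEIS-type proteins; TGATTGAT and TGATNNAT, sites of PBX-type proteins alone or with a Hox protein; TAATTA, a homeodomain site; GAGAGAGA and CACGTG. A match to TGACAG was found at 1 of 12 locus peaks, peak 4, against 10.1% of all optimal peaks. It lay on the reverse strand at chrV:4499529-4499534, centred 25 bp before the summit. TGATTGAT was found at peak 3 alone, against 3.57% of all optimal peaks, centred 5 bp before the summit on the reverse strand. Matches to TGATNNAT, which includes every TGATTGAT match, were at peaks 3 and 10, against 13.1%. TAATTA was at peak 8 alone, against 1.25%. GAGAGAGA and CACGTG were at 0 of the 12, against 9.55% and 4.34%. Together, 2 of 12 peaks held TGACAG or TGATTGAT, against 13.3% of all optimal and 6.57% of all merged summits, so their share at unc-62 was near that of the list.

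A seventh motif, TGATTGACA, which joins a PBX-type and a MEIS-type site and does not overlap the TGACAG or TGATTGAT matches here, was chosen after the summit windows had been read. It stands on the reverse strand in the windows of peaks 1 and 2, at chrV:4489901-4489909 and chrV:4491496-4491504, centred 29 bp before and 24 bp after the summit. Over all lists it was present at 27 of 1037 optimal summits, 2.60%, and at 65 of 18556 merged summits, 0.350%. Each of the 3 upstream peaks therefore holds a match to TGATTGAT or TGATTGACA near its summit. Inside the gene, 7 of 9 peaks hold no match to TGACAG, TGATTGAT, TGATNNAT or TGATTGACA. The shares of all optimal summits for these combinations of motifs were not counted. Neither count is therefore read as particular to the peaks upstream of the gene or inside it. Because TGATTGACA was picked from these windows, no weight is given to the counts.

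**Figure D1:**
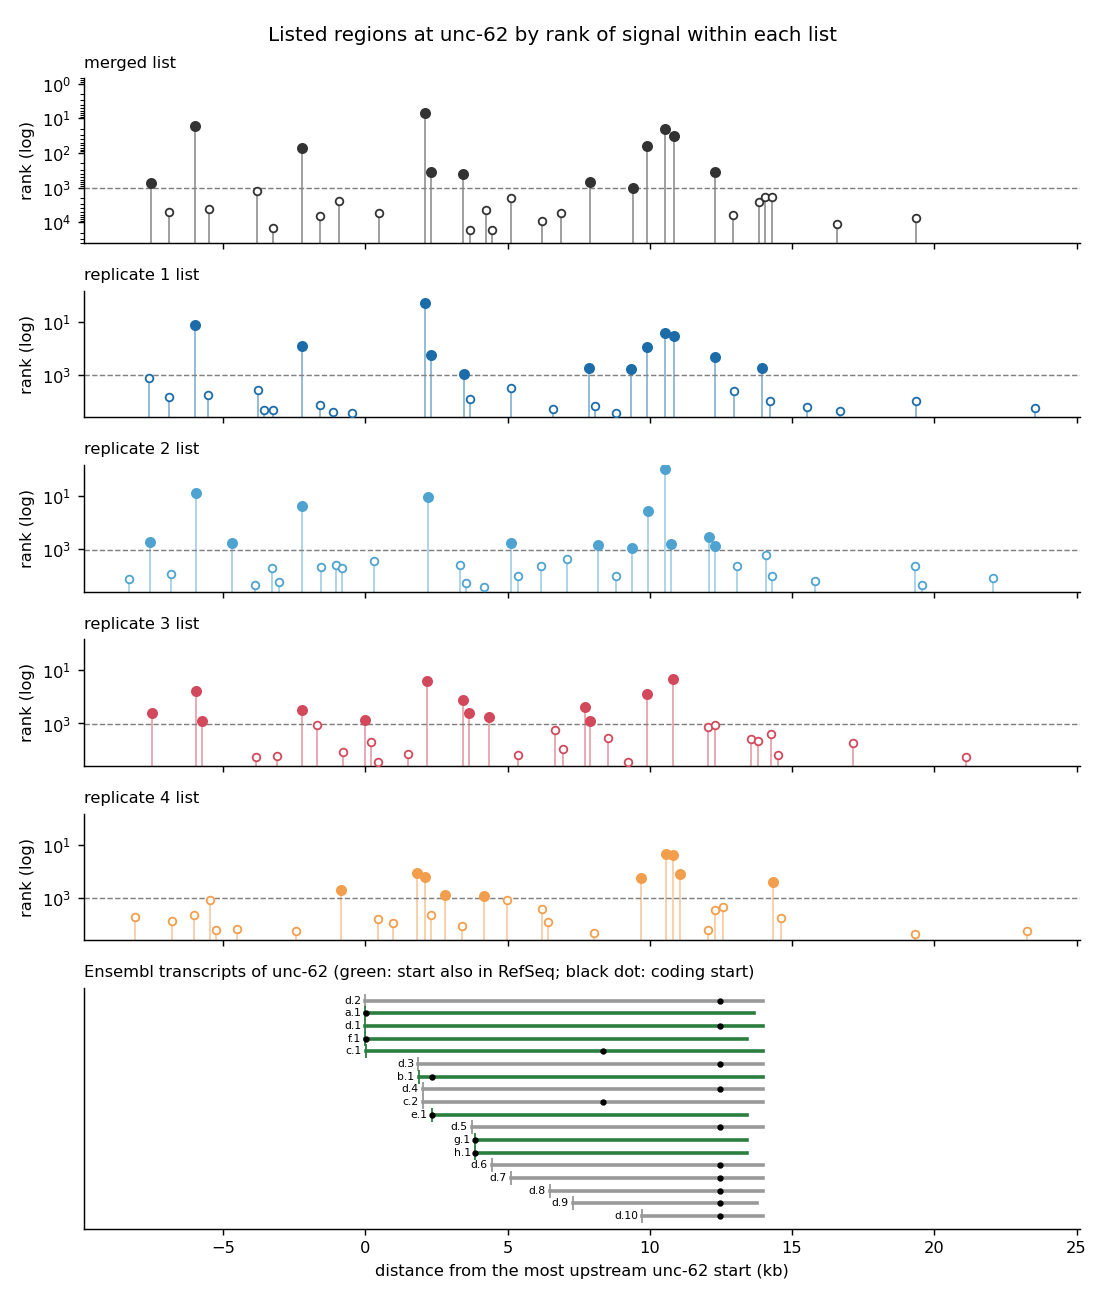
Each vertical line is a region, placed by its summit's distance from the most upstream unc-62 start (kb, horizontal axis) and by its rank of signal within the list (vertical axis, log scale, 1 at the top); filled points are among the 1037 highest regions and the dashed line marks rank 1037. The lowest panel draws the 18 Ensembl transcripts with their coding starts. Filled points stand at the second group of starts and in the long intron in all 5 lists shown; at peaks 2 and 3, upstream, they are filled in the merged list and replicates 1 to 3 and open in replicate 4.

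Upstream of the gene, peaks 1, 2 and 3 had summits 7527, 5985 and 2228 bp before start 1, all intergenic by annotation. Peak 2 (chrV:4491392-4491569) was the strongest of them, with a signal of 163.3 and rank 17. Its ranks in replicates 1 to 4 were 14, 8, 62 and 4328. Replicates 1, 2 and 3 thus placed it among their 100 highest regions, and replicate 4 far below its 1037 highest.

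Peak 3 (chrV:4495199-4495300), 102 bp wide, had a signal of 100.5 and rank 70. It ranked 85, 24, 306 and 17715 in the replicates. Peak 1 (chrV:4489756-4490111), with a signal of 43.7 and rank 740, ranked 1346, 558 and 391 in replicates 1 to 3, while no region of replicate 4 covered it. Over these 3 upstream peaks, replicate 4 was low or absent each time, and its best region upstream of the gene ranked 492, 868 bp before start 1. The best upstream ranks in replicates 1, 2 and 3 were 14, 8 and 62.

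Start 1, from which the longest isoforms are transcribed, had no optimal peak near it, and its best regions differed in rank and place between replicates. From 1000 bp upstream to 200 bp downstream of it the merged list had its best region at rank 2410, 911 bp upstream. The replicates had ranks 27232, 5274, 730 and 492 there. Regions of replicates 3 and 4 were among their 1037 highest and those of replicates 1 and 2 were not. The summits lay 473, 820, 7 and 868 bp upstream, so the replicates did not place their best region at the same point. The nearest optimal summit was 2087 bp downstream, at peak 4, and the stretch of 1866 bp between start 1 and start 2 held 0 optimal peaks and 1 merged region of rank 5537.

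The second group of starts carried the strongest peak of the locus. Peak 4 (chrV:4499362-4499787) had a signal of 210.5 and rank 7 of 1037, with its summit at 4499556. That is 68 bp downstream of the start of transcript c.2 and 240 bp upstream of 4499796, the start of isoform e and the coding start of isoform b. Its ranks in replicates 1 to 4 were 2, 11, 25 and 117. The replicate 4 region of rank 117 has its summit 262 bp upstream of that of peak 4, and the replicate 4 region with its summit 1 bp from it ranked 167. By either region, all 4 replicates had the peak among their 1037 highest. The summit falls in a 5′ untranslated exon of 4 transcripts, in an intron of 5 that begin at start 1, and upstream of 9; by the order of classes it counts as promoter.

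Peak 5 (chrV:4499362-4499789) covers nearly the same bases, with a second summit at 4499758, 38 bp upstream of 4499796, a signal of 58.6 and rank 351. It was covered by the same replicate regions as peak 4, so its ranks of 2, 11, 25 and 117 add no evidence of their own. Regions with a summit within 1 bp of it were present in replicates 1 and 4, at ranks 177 and 4248. Replicates 2 and 3 had 1 region each over the pair, with a summit 103 and 117 bp upstream of that of peak 5.

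Peak 6 (chrV:4500733-4501088) lay 407 bp upstream of 4501318, the start of isoforms g and h, and 301 bp upstream of start 5, used by transcript d.5. Its signal was 54.7 and its rank 403. The ranks in the replicates were 939, 4062, 137 and 11751. Replicates 1 and 3 held it and replicates 2 and 4 did not, so the start of isoforms g and h had a peak that recurred less than the one at isoforms b and e.

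Between there and the long intron lay peak 7 (chrV:4505173-4505528), with a signal of 45.2 and rank 688. It ranked 558, 722, 248 and 20429 in the replicates, and was held by replicates 1, 2 and 3. Its summit was 591 bp downstream of start 10, in an untranslated exon of 2 Ensembl transcripts and an intron of 15, and 4033 bp downstream of the nearest RefSeq start.

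**Figure D2:**
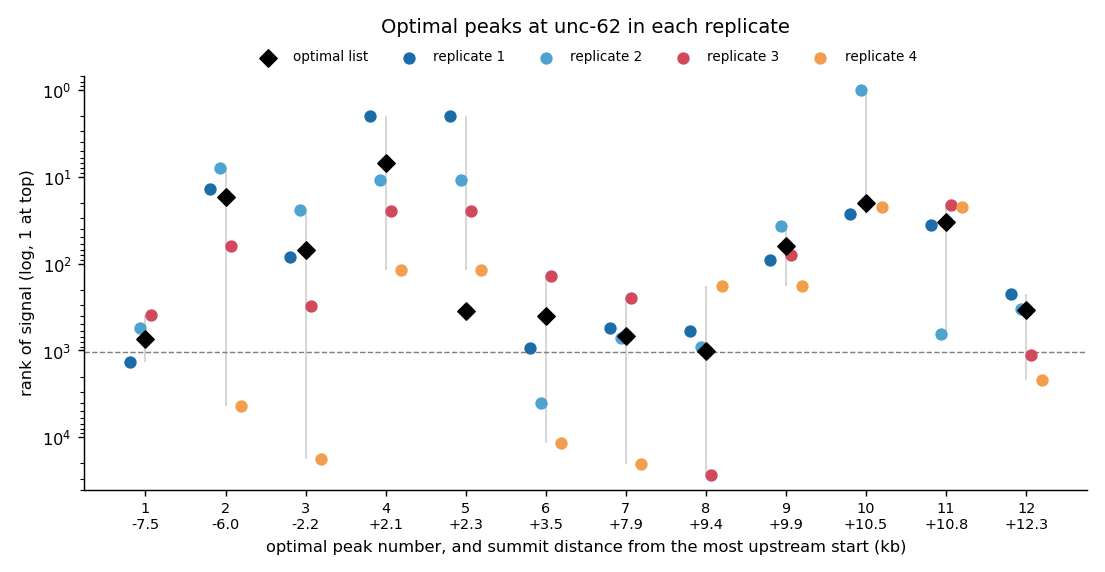
Rank of signal (vertical axis, log scale, 1 at the top) of each of the 12 optimal peaks in the optimal list (diamonds) and of the best overlapping region in each replicate (circles), by peak number and distance of the summit from the most upstream start (kb); the grey line joins the highest and lowest replicate and the dashed line marks rank 1037. Peaks 4, 5, 9 and 11 lie above the dashed line in all 4 replicates; replicate 4 lies below it at peaks 2, 3, 6, 7 and 12 and lists no region at peak 1, and replicate 3 lists none at peak 10.

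The longest intron, of 3973 bp at chrV:4505906-4509878, held 5 of the 12 optimal peaks, or 1.26 per kb. The second group of starts, only 481 bp long, held 2 overlapping peaks, or 4.16 per kb, and the stretch of 6098 bp between them held 2, or 0.328 per kb. It separates the exon where transcript c begins to code from the exons where d does. The best rank in it was 20 in the merged list and 27, 1, 21 and 22 in replicates 1 to 4. The highest region of the whole list of replicate 2 was therefore in this intron, and the highest region of the window in replicates 3 and 4 was there as well. Regions among the 1037 highest numbered 5, 6, 2 and 4 in the intron in replicates 1 to 4, and 2, 2, 5 and 2 in the stretch before it, so replicate 3 had more of them before the intron. The merged list had 5 regions in the intron and 8 in that stretch.

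Peak 10 (chrV:4507781-4508124) had a signal of 156.1 and rank 20, with ranks of 27, 1 and 22 in replicates 1, 2 and 4. No region of replicate 3 covered it. Peak 11 (chrV:4508114-4508477), whose edge overlaps that of peak 10, had a signal of 129.7 and rank 33, with ranks of 36, 652, 21 and 22. The region of replicate 4 that ranked 22 covers both, and replicate 3's region of rank 21 has its summit 36 bp before that of peak 11. Taken as 1 joined interval, the pair ranked 27, 1, 21 and 22, so no replicate ranked it below 27. Those ranks belong to different summits, at peak 10 in replicates 1, 2 and 4 and at peak 11 in replicate 3. Replicate 2 ranked peak 11 far lower than peak 10, and replicate 3 listed only peak 11, so the joined ranks do not show agreement on 1 summit.

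Peak 9 (chrV:4507191-4507546) had a signal of 105.7 and rank 63, and ranked 90, 37, 79 and 182 in the replicates. All 4 replicates held it, and its ranks spanned the narrowest range on a log scale among the 10 peaks covered in all 4 lists. The replicate 4 region, however, has its summit 233 bp upstream of that of peak 9, outside the peak. Only 3 replicates had a summit within 100 bp of it. Peak 8 (chrV:4506701-4507056), with a signal of 37.6 and rank 1017, was close to the end of the optimal list. It ranked 594, 917, 27418 and 182, and the replicate 4 region is the one that also covers peak 9. Peak 12 (chrV:4509561-4509916), with a signal of 59.3 and rank 344, ranked 224, 337, 1120 and 2160, so replicates 1 and 2 held it and replicates 3 and 4 did not.

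How the intronic peaks are classed rests on a single annotated transcript. Ensembl transcript d.10 starts at 4507204 inside this intron, and its first exon covers peaks 9, 10, 11 and 12, which are classed as 5′ UTR for that reason. In the other 17 Ensembl transcripts, and in all 8 RefSeq transcripts, these 4 summits lie in an intron. Peak 8 counts as promoter because it is 325 bp upstream of the same start, whereas its nearest RefSeq start is 5561 bp upstream. By Ensembl, the 12 peaks comprised 4 promoter, 5 5′ UTR and 3 intergenic summits. The promoter class holds 41.4% of all optimal summits and the 5′ UTR class 1.83%, or 19 peaks in the genome, of which 5 are at unc-62. With RefSeq starts, 3 of the 12 were within 1000 bp upstream of a start, namely peaks 4, 5 and 6.

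Set out by start, an optimal summit lay within 1000 bp on either side of 9 of the 15 Ensembl starts and of 3 of the 5 RefSeq starts, those of isoforms b, e, and g with h. Start 1, with its RefSeq pair of positions, was without one. The best merged rank at start 3 and start 4 was 7, at starts 5 and 6 it was 403, and at start 11 it was 63, with replicate ranks of 90, 917, 79 and 182. Replicate 2 also had a region of rank 37 with its summit 206 bp downstream of start 11, beyond the 200 bp limit. Start 8, used by transcript d.7 alone, had a merged region of rank 2003 at 9 bp upstream, and replicates 1 and 2 had summits 10 bp upstream at ranks 3124 and 584. Replicates 3 and 4 had ranks of 565 and 855 in that window, 775 and 944 bp upstream. Thus 3 of 4 replicates had a region among their 1037 highest in the window without an optimal peak. Of those 3, only replicate 2 had it at the start itself. Start 7 had a merged rank of 4382 and replicate ranks of 939, 19523, 409 and 855. The regions of replicates 1, 2 and 3 there overlap peak 6, and that of replicate 4 is the one counted at start 8. It lies nearer start 7, 276 bp upstream. Replicate 3's region of rank 565, counted at start 8, is also in the window of start 7, 107 bp upstream of it. Windows of neighbouring starts overlap, so a region can count at several starts. Starts 9 and 10 had best merged ranks of 9301 and 5461, and no replicate had a region among its 1037 highest at either, the best being 1687 in replicate 3 at both. Start 2 had no merged region in its own window, because the summit of peak 4 is 226 bp downstream of 4499330, beyond the 200 bp limit. Replicate 4, however, had its region of rank 117 there, 33 bp upstream of the start, and replicate 3 had one of rank 14553. Replicates 1 and 2 had no region in that window.

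**Figure D3:**
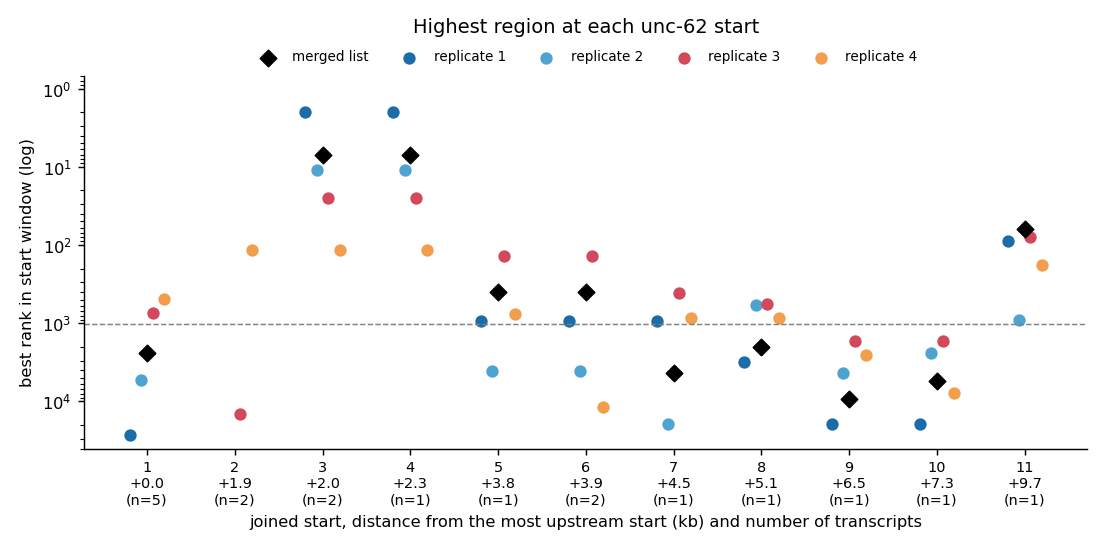
Best rank of signal (vertical axis, log scale, 1 at the top) of a region with its summit from 1000 bp upstream to 200 bp downstream of each of the 11 joined starts, in the merged list (diamonds) and the 4 replicates (circles); labels give the start number, its distance from start 1 (kb) and its number of transcripts, and the dashed line marks rank 1037. Starts 3, 4 and 11 are above the dashed line in all 5 lists, and at start 1 replicates 3 and 4 are above it and replicates 1 and 2 below.

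Of the 12 peaks, 4 were held by all 4 replicates against 14.1% of all optimal peaks, 5 were held by 3 and 3 by 2. None was held by fewer than 2. The share held by 3 or 4 replicates in the whole optimal list was 40.5%. Replicates 1 to 4 held 11, 11, 9 and 6 of the 12, or 91.7, 91.7, 75 and 50%, where they held 78.9, 59.8, 51.5 and 32.2% of all optimal peaks. The replicates had a part in making the optimal list, so the counts describe recurrence and do not test it. The locus peaks also had a higher median signal than all optimal peaks, 79.9 against 50.5. The shares were not matched for rank, so higher recurrence is not read as particular to unc-62. The 4 peaks held by all are peaks 4, 5, 9 and 11, and joining overlapping peaks left 10 intervals, of which 3 were held by all 4. The count of 4 depends on the rule: it was 10 with every listed region, 2 without the peaks that overlap a stronger one, 1 with summits within 100 bp and 0 when 0.5 of the peak had to be covered. Without replicate 4 it was 7.

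Both replicates 1 and 2 ranked a peak above both of replicates 3 and 4 at 5 of the 10 peaks that all 4 lists covered, peaks 2, 3, 4, 5 and 12, against 32.3% of 784 optimal peaks covered in all 4 lists. Peaks 4 and 5 share their replicate regions; with overlapping peaks joined, it was 4 of 9 intervals. The mean log10 rank was ahead in replicates 1 and 2 at 8 of the 10 peaks and at 8 of the 9 intervals. How often this holds over all optimal peaks was not counted, so it is not read as particular to unc-62. Peak 2, for instance, had geometric mean ranks of 10.6 and 518 in the 2 pairs, and peak 4 had 4.69 and 54.1. Peak 11 went the other way, with 153 and 21.5. Its ranks of 21 and 22 in replicates 3 and 4 were both ahead of 36 and 652 in replicates 1 and 2. With peaks 10 and 11 joined, the ranks of 27, 1, 21 and 22 overlapped between the pairs. An exact permutation test, two-sided, of 2 against 2 replicates cannot give a p below 0.333, which was the lowest value over the 10 peaks, so it can neither show a difference between the pairs nor speak to its absence. The size range label, the sonication label and source change together between the pairs and cannot be told apart.

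Summits among the 1037 highest regions of each replicate numbered 12, 13, 13 and 10 in the window, a mean of 12 ± 1.41 (SD, n = 4), where those regions are 3.46, 3.46, 3.46 and 3.69% of the replicate lists. Their density was 42.9, 41.7, 46.0 and 36.2 times that of chromosome V, a mean of 41.7 ± 4.09 (SD, n = 4). Regions below rank 1037 were also denser at the locus than on chromosome V, by 2.23, 2.53, 2.28 and 2.47 times, a mean of 2.38 ± 0.145 (SD, n = 4). The excess at unc-62 was thus present in each replicate in strong and in weak regions. In the merged list all regions together were 5.67 times as dense as on the chromosome.

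Beyond the window regions were sparser on both sides. From 10 to 100 kb away on either side, over 180000 bp, there were 0 optimal peaks and 39 merged regions, 0.217 per kb against 0.912 per kb in the window. The replicates had 2, 2, 1 and 1 of their 1037 highest regions in those flanks, and a density in the window 3.10 to 3.34 times that of the flanks. The nearest other optimal summits were 773464 bp upstream and 539858 bp downstream of the outermost locus peaks. These are the sixth and the ninth longest of 161 intervals between neighbouring optimal summits of chromosome V, whose median was 42940 bp. Within the cluster the 12 summits spanned 19805 bp with a median spacing of 1437 bp.

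**Figure D4:**
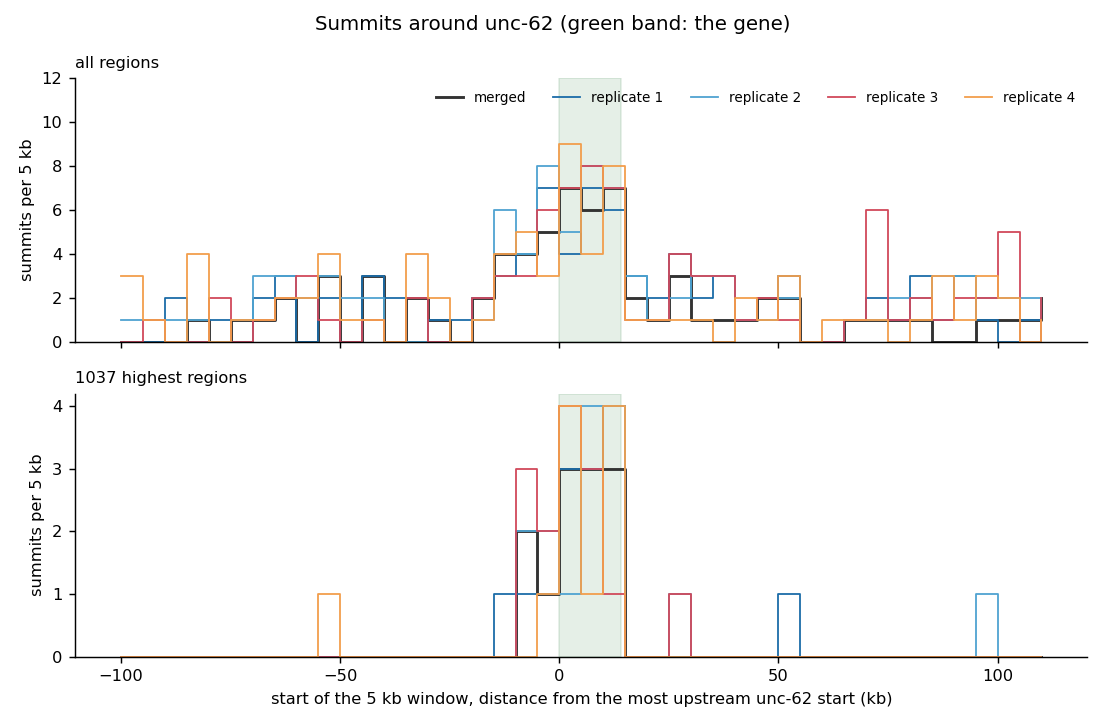
Number of summits per window of 5 kb (vertical axis) against the start of the window as distance from the most upstream unc-62 start (kb, horizontal axis), for the merged list and the 4 replicates; the upper panel has all regions, the lower panel the 1037 highest of each list, and the green band is the gene. The highest windows, with 7 to 9 summits, are at the gene and just upstream, and outside the locus at most 6 occur in a window.

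The clustering was compared with other genes in the same way. An optimal summit was within the gene or 10000 bp of it for 17.3% of 19973 protein-coding genes, and only egl-27 (chrII:6835008-6847908), which encodes a chromatin regulator of the MTA family, reached 12 as well, so 0.0100% of genes had as many. Its window held 12, 10, 10 and 7 of the highest regions of replicates 1 to 4, and its regions below rank 1037 were 2.25 ± 0.230 (SD, n = 4) times as dense as on chromosome II. In the merged list lin-14 (chrX:11465560-11485871), a regulator of larval timing, also reached 31 regions, 3 of them optimal, with 2.20 ± 0.382 (SD, n = 4) times the density of chromosome X below rank 1037. Counted by gene with flanks, unc-62 had the highest or equal highest number in the optimal and merged lists and among the 1037 highest regions of each replicate. Per kb of that window, 3 genes, unc-62 included, reached its density of optimal summits. Sliding windows of the same length, 33989 bp, gave another order. The densest held 17 optimal summits at egl-27 and its neighbours against 12 at unc-62, which came next. Among the 1037 highest regions of replicates 1, 2 and 3, the egl-27 window had 18, 14 and 15 against 13, 13 and 13 at unc-62. In replicate 4, unc-62 had 10 and egl-27 had 9, and in the merged list unc-62 had 36 and egl-27 had 34. egl-27 and lin-14 were named after their counts were seen. Among the 1037 highest regions, the density over that of the chromosome was 29.2 ± 6.81 times at egl-27 and 6.48 ± 1.66 times at lin-14 (SD, n = 4), against 41.7 ± 4.09 times at unc-62. Because the transgene also holds unc-62 sequence, the genes are not compared at a known equal copy number. The effect of the extra sequence on the counts was not tested.

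The other genes whose bodies reach into the window share its regions. T28F12.1 starts downstream of unc-62 on the same strand and sos-1, which encodes a guanine nucleotide exchange factor of the Ras pathway, lies on the opposite strand. None of the 12 optimal summits was in either gene, and the 4 merged regions downstream of unc-62 had a best rank of 1840. Of the 4 replicates, only replicate 4 had a region among its 1037 highest with its summit downstream of the gene, at rank 265. Replicate 1 had one of rank 570 with its summit in the 3′ UTR of unc-62, and that region reached past the end of the gene. Both overlap the merged region of rank 1840.

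Among 10 Hox, PBX-type and related partner genes, 5 had an optimal summit in the gene or within 10000 bp, against 17.3% of all protein-coding genes, and all 10 had a merged one, against 93.4%. ceh-13, a Hox gene of the labial type, had 4 optimal summits, and ceh-20, encoding the PBX-type partner, had 3. The Hox genes lin-39 and mab-5 had 2 and 1, and the PBX-type ceh-60 had 1. The Hox genes egl-5, php-3 and nob-1, the PBX-type ceh-40 and the MEIS-related psa-3 had 0. Merged counts had a median of 7.5, against 4 over all protein-coding genes, and a maximum of 16, at mab-5, against 31 at unc-62. The genes compared differ in length and some of them neighbour each other, so counts are not per length.

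The pattern of ranks at the starts of unc-62, which was 7 in the merged list and 2, 11, 25 and 117 in the replicates, was closest to that of ceh-20, with 3 and 3, 10, 35 and 37. Likeness was the mean absolute difference in log10 rank over those 5 lists, which was 0.246 for ceh-20. The next were cdc-48.1, encoding a p97-type ATPase, at 0.280, nspc-17 at 0.404, rpl-3, encoding a ribosomal protein, at 0.436, and K11H12.8 at 0.500. The merged list was derived from the same 4 replicates, so the 5 lists are not independent.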

How the data were processed

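The files used were the ce11 peak lists, 6 in all: those of the 4 replicates, that of the merged data and that of the optimal peaks. Per the notes deposited with the files, alignments of all 4 replicates with a control gave the merged list, and the optimal list was made from it and the replicate lists. Each deposited region has the authors' signal value, their −log10 q-value and a summit offset; which aligner, caller and thresholds made them is not given in the sources used here. Read counts were not analysed here, so depth is unknown at every region and no interval that needs it is printed. The control, alignments and ce10 lists were not analysed here either. No per-sample column was left aside for want of a sample (0 columns).

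Positions count from 1 on ce11, also named WBcel235. Transcripts came from Ensembl release 115, and RefSeq starts were an alternative added after the data had been seen. Regions were ranked by signal within a list, counted at their summits and compared across the 4 replicates as mean ± SD. Each summit had 1 class, the first that applied of promoter (no more than 1000 bp before the start of a protein-coding transcript), 5′ UTR, exon with coding sequence, 3′ UTR, intron and intergenic. Flanking density was counted from 10 to 100 kb, and the profile in windows of 5 kb. A start window ran from 1000 bp upstream to 200 bp downstream. The only test was an exact permutation test of 2 against 2 replicates; with 1 group, no treated and untreated samples were compared. Named genes, by rule, were unc-62, genes overlapping the window, 10 partner genes and the 5 genes with the most similar ranks; egl-27 and lin-14 were added after their values were seen. The locus, gene lists and motifs were chosen with earlier results of these data known. Overlap and motif counting was tested on simulated data. Python 3.11.15, pandas 2.3.3, NumPy 2.4.6, SciPy 1.17.1 and Matplotlib 3.10.9 were used.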

Additional observations from a re-analysis of the deposited data

Results flagged for a closer look

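Of 28 groups of 4 replicate values examined for a sample far from the others, 1 stood out. At peak 11 in the long intron, replicate 2 ranked its region 652 where the others ranked theirs 36, 21 and 22, a gap on the log10 scale that was 0.843 of the group's range. Chance gives such a gap in about 1 group in 20. The highest region of the whole list of replicate 2 lies at the neighbouring peak 10, and with both peaks joined the ranks were 27, 1, 21 and 22. Of these, the rank of 21, in replicate 3, belongs to peak 11 and the others to peak 10.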

How the results depend on the processing

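Of 42 alternative counts, 30 stayed within the set limits and 12 moved beyond them; the cause was not tested unless the alternative's own construction gives it. The mean number of replicate regions in the window, 33 in the full lists, was 12 with only the 1037 highest regions of each replicate, and 32.0 to 33.7 when a replicate was left out. The 4 optimal peaks held by all replicates became 10 when every listed region counted, 1 with summits within 100 bp, 0 when 0.5 of the peak had to be covered and 2 without the peaks that overlap a stronger one. Leaving out a replicate gave 4 to 7, with 7 without replicate 4 and 6 without replicate 3. The fold density of merged summits, 5.67, was 5.13 by covered bases, 6.74 with 5000 bp and 4.84 with 20000 bp on each side, and 4.93 against all nuclear chromosomes. Peaks with TGACAG or TGATTGAT, 2 in all, fell to 1 within 25 bp. Starts with an optimal summit within 1000 bp, 9 of 15 by Ensembl, were 3 by RefSeq. The 12 optimal peaks were 10 with 5000 bp on each side, and 10 with overlapping peaks joined. RefSeq starts, the joining of peaks, the omission of overlapping peaks and TGATTGACA, which matched at 2 summits, were chosen after seeing the data. No paired analysis was possible because there is only 1 group. The small number of replicates and the unknown depth limit what a missing region in 1 list can show.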
